A study of Homo sapiens with 4 samples.

Results

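The ERBB, MET and FGFR2 signalling genes were followed in HuCCT1, an established human cholangiocarcinoma (bile duct cancer) cell line, over 4 Affymetrix Human Gene 1.0 ST arrays. The set holds 10 genes, chosen by name with earlier results of these data known. They are the receptors EGFR, ERBB2, ERBB3, MET and FGFR2 and the ERBB ligands AREG, EREG, TGFA, HBEGF and BTC. A gene was measured where the platform annotation gave a row exactly 1 symbol equal to its name, and 9 of the 10 were found, each on 1 row, among 18377 genes. No row used here carries AREG (amphiregulin) as its only symbol, so the 5 receptors are set against 4 ligands. One array each was labelled VPA, GEM, GEM_VPA (the combination) and untreated. VPA and GEM are the labels' abbreviations and are read as valproic acid, which inhibits histone deacetylases, and gemcitabine, a nucleoside analogue that blocks DNA synthesis. All 4 arrays share the one cell line, and the labels state no dose, exposure time or culture batch. The series compares each drug alone, and both together, with no drug.

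The ERBB receptors are tyrosine kinases that pair when a ligand binds. EGFR binds TGFA, HBEGF, BTC, EREG and AREG, ERBB3 signals through its partners because its own kinase is weak, and ERBB2 has no known ligand and serves as the preferred partner. MET is the receptor of hepatocyte growth factor (HGF) and FGFR2 that of several fibroblast growth factors, and all of them feed the RAS-ERK and PI3K-AKT cascades. The EGFR ligands are made as membrane-bound precursors and are released by ADAM proteases. In bile duct cancer these receptors are known for amplification or overexpression of ERBB2, EGFR and MET and for FGFR2 gene fusions.

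Values are log2 intensities as the authors normalized them, so a difference of 1 is 2-fold. With 1 array per condition there was no replicate, and differences between 2 arrays have neither error nor p-value. The number of arrays limits the precision. A difference was called at 2-fold or more in either direction, the cut-off that the series text sets (ratios of 2 and 0.5), provided the brighter of the pair reached the median of its array over all rows (7.87 to 7.92). The arrays labelled GEM_VPA and untreated were close to each other, with a robust SD of the log2 ratios over all genes of 0.15, and the spread was 0.25 to 0.27 in the other 4 comparisons. The VPA and GEM arrays formed the other close pair (0.16). All directions follow the labels as given, which cannot be checked here without replicates. An exchange of labels between arrays was not tested and would change the signs given here. In RNA of a whole culture, fewer cells expressing a gene and less RNA per cell cannot be told apart. Levels of different genes are not compared, because probes differ in response. Of 10 measured biliary epithelial markers, 8 lay above the median on every array, KRT7, KRT19, KRT8 and KRT18 among them. CFTR and AQP1 lay below it on every array, as did all 5 endothelial markers. Of the markers of other cell types, 2 of 8 for hepatocytes (APOA1 and SERPINA1), 2 of 7 for leukocytes (CD68 and NKG7) and 1 of 6 for fibroblasts (COL1A1) lay above it on every array. Over all genes, 11808 of 18377 reached the median on at least 1 array, which is a looser measure. The share of all genes above it on every array was not counted, so these marker counts cannot check the cell line label.

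Among the receptors, MET and FGFR2 were lower on both single-drug arrays than on the untreated array, and on the GEM_VPA array they were near or above it. Among the ligands, HBEGF and TGFA were higher on both single-drug arrays and close to untreated on the GEM_VPA array. EREG went the way of MET, and ERBB2 and ERBB3 differed little anywhere. Of all 9 measured members in 5 comparisons, HBEGF in VPA over untreated alone passed the 2-fold rule. Of all genes at level, 0.148% to 5.38% passed it in a comparison, and 4.00% did in VPA over untreated.

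MET read 11.65 on the VPA array, 11.59 on the GEM array, 12.29 on the GEM_VPA array and 12.35 on the untreated array. The single-drug arrays thus formed the low pair and the other two the high pair. The log2 ratio of MET was -0.70 for VPA over untreated and -0.76 for GEM over untreated, or 1.62-fold and 1.69-fold lower. A ratio of that size or more was seen in 11.4% and 9.62% of all genes at level in those comparisons. In GEM_VPA over untreated the ratio of MET was -0.05.

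FGFR2 had the widest range of the receptors, 0.87. It read 9.02 with VPA, 8.84 with GEM, 9.71 with GEM_VPA and 9.44 untreated. Its order was the same as that of MET on the low side, but here the GEM_VPA array stood above the untreated one. Its log2 ratio was -0.42 for VPA, -0.60 for GEM and 0.27 for GEM_VPA over untreated. In the last comparison 13.8% of genes differed at least as much, against 16.5% for the GEM ratio, because the GEM_VPA and untreated arrays are close over all genes. The row covers many FGFR2 transcripts, so the epithelial and mesenchymal splice forms cannot be told apart.

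EGFR read 9.95 with VPA, 9.89 with GEM, 9.80 with GEM_VPA and 9.60 untreated. All 3 treated arrays were above the untreated one, by 0.35, 0.30 and 0.21 on the log2 scale. Ratios this large were common, at 36.8%, 42.7% and 22.8% of genes. ERBB2 read 9.52, 9.38, 9.46 and 9.50 on the VPA, GEM, GEM_VPA and untreated arrays, a range of 0.14 and the narrowest of the 9 members. ERBB3 read 8.88, 8.80, 8.62 and 8.75 in the same order of arrays, a range of 0.26. Neither gene differed from untreated by more than about 0.13 on any array.

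HBEGF, heparin-binding EGF-like growth factor, had the widest range of all members, 1.05. It read 11.16 with VPA, 11.00 with GEM, 10.27 with GEM_VPA and 10.12 untreated, so the single-drug arrays were the high pair. It rose 2.07-fold with VPA over untreated (log2 ratio 1.05) and was the 1 member past the rule there, where 4.00% of 11611 genes at level were called in either direction and 1.90% were called higher. The ratio lay just inside the limit, and after median centring of the arrays it was 0.997, just outside. For GEM over untreated HBEGF was at 0.88, the nearest value outside the limit in the comparisons with untreated. For GEM_VPA over untreated it was at 0.15.

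TGFA, transforming growth factor alpha, read 10.62 with VPA, 10.56 with GEM, 10.08 with GEM_VPA and 9.95 untreated. It ordered the arrays as HBEGF did, with log2 ratios of 0.68, 0.61 and 0.14 over untreated. Ratios at least as large as the first were seen in 12.4% of genes and as the second in 15.6%. EREG, epiregulin, was the ligand that went the other way. It read 12.61 with VPA, 12.84 with GEM, 13.13 with GEM_VPA and 13.13 untreated, above at least 98.0% of rows on each array. Its log2 ratios were -0.53, -0.29 and -0.005 over untreated, and the last changed sign when the columns were quantile normalized again (0.03) or median centred (0.002).

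BTC, betacellulin, was the member nearest the limit of level, above 41.5% to 50.8% of the rows of an array. It read 7.78 with VPA, 7.96 with GEM, 7.35 with GEM_VPA and 7.74 untreated, and reached the array median on the GEM array only. The GEM_VPA array was the lowest, with a log2 ratio of -0.39 over untreated, a size reached by 5.68% of genes at level in that comparison. BTC lies near EREG and AREG in the ERBB ligand cluster of chromosome 4 (GRCh38.p14 gene table), and the neighbours EREG and BTC had different profiles.

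**Figure D1:**
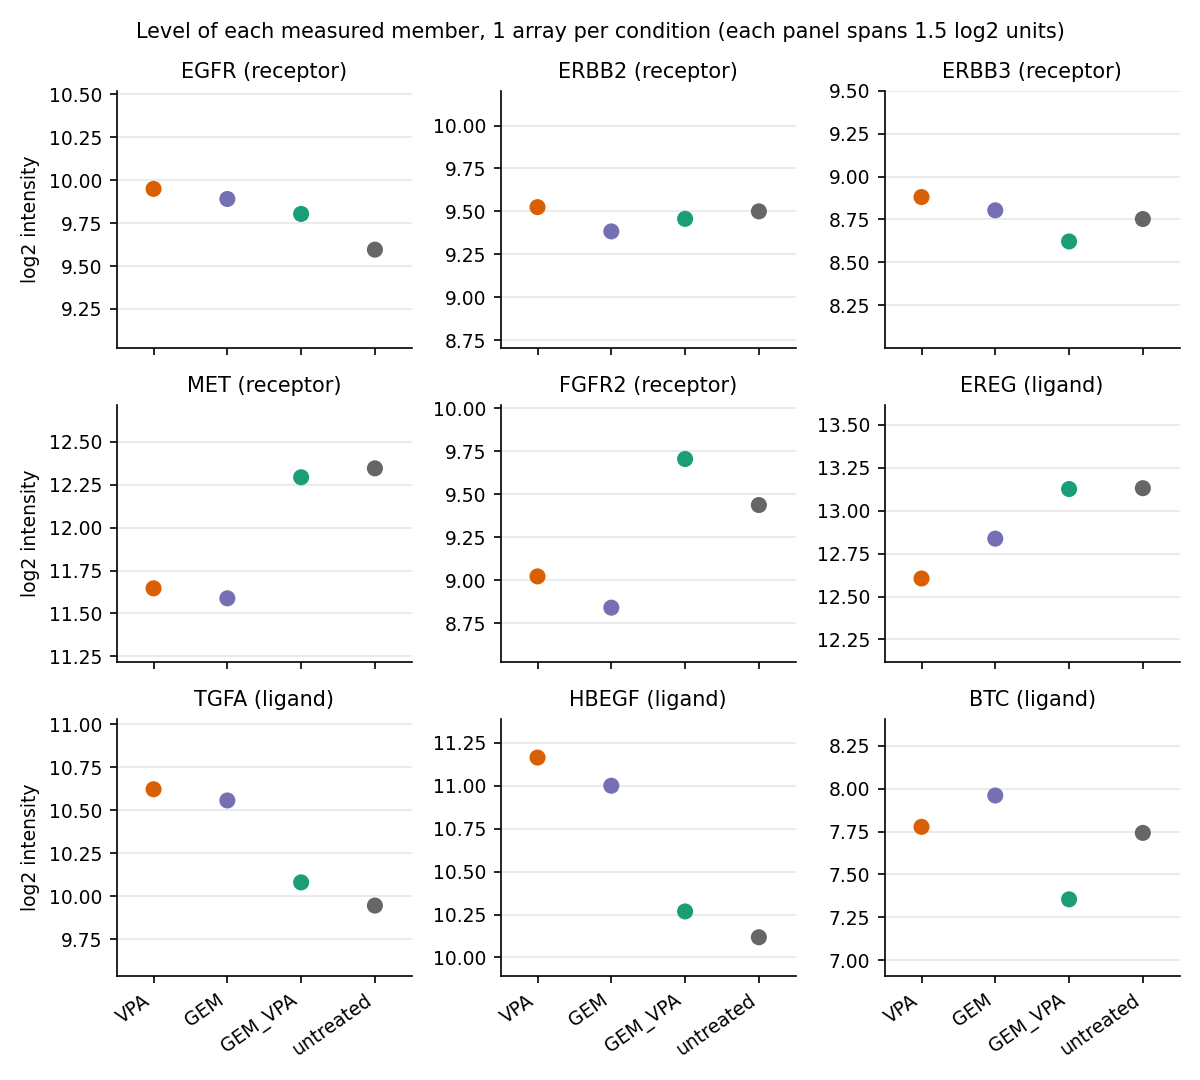
Log2 intensity (y axis) of the 9 measured members on the VPA, GEM, GEM_VPA and untreated arrays (x axis), 1 point per array, each panel spanning the same 1.5 log2 units. MET, FGFR2 and EREG have their low points on the VPA and GEM arrays, and TGFA and HBEGF have their high points there.

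The DNA before a listed transcript start of 5 genes is shown. The pair with higher values (HBEGF, TGFA) can so be read beside the 3 with lower values (MET, FGFR2, EREG). They were chosen after their values were seen, by the mean size of their log2 ratios for VPA and GEM over untreated, 0.41 to 0.96. EGFR came next at 0.32. Each line gives the 250 bases before the start of the first transcript that the RefSeq promoter table (GRCh38.p14) lists, 5′ to 3′ on the gene's own strand. That source lists 5 starts for FGFR2 and 2 for TGFA, and their other starts were not read. On its minus strand the FGFR2 gene begins at position 121598458, so the last bases of its window lie inside the gene. Most of the GC box nearest the window's end lies there too. Capitals mark matches on either strand to 6 motifs. The GC box was searched as GGGCGG and the TATA box as TATAAA. For the TEAD core the letters were CATTCC, and the CCAAT box was searched by the letters of its name. An AP-1 site was TGANTCA, and a cyclic AMP response element (CRE) was TGACGTCA.
HBEGF, chr5:140346604-140346853 on the minus strand: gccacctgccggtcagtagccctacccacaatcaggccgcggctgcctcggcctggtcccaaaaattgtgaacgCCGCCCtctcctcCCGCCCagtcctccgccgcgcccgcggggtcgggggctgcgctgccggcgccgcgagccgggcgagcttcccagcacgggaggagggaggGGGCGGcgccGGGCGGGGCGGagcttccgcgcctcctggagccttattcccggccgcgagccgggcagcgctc
TGFA, chr2:70553827-70554076 on the minus strand: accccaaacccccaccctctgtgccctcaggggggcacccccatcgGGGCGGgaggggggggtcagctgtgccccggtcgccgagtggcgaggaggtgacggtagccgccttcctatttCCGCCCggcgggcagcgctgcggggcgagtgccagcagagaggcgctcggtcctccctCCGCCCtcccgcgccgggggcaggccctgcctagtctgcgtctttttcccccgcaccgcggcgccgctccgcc
MET, chr7:116671946-116672195 on the plus strand: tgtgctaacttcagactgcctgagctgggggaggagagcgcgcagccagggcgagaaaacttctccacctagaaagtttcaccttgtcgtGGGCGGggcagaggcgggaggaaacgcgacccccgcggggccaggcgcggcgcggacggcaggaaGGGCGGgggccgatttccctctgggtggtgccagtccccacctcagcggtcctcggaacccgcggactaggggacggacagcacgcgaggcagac
FGFR2, chr10:121598445-121598694 on the minus strand: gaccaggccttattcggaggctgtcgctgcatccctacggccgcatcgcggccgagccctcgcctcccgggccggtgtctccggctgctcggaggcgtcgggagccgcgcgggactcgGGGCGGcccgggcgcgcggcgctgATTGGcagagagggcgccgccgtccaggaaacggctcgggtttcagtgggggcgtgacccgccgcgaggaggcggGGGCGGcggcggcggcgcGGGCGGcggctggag
EREG, chr4:74364895-74365144 on the plus strand: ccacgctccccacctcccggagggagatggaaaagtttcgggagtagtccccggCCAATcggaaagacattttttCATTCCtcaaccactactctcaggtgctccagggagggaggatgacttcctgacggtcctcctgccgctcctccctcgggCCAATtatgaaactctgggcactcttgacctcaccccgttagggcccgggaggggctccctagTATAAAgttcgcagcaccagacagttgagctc

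HBEGF held 5 GC box matches, of which a pair shared 1 base, TGFA and FGFR2 held 3 each, MET held 2 and EREG none. Of 27305 promoters read the same way, 42.3% held at least 1, so the matches lay in genes of both directions and at a motif that is common. EREG held a TATA box, which 11.1% of promoters hold, a TEAD core (11.9%) and 2 CCAAT boxes, and FGFR2 held 1 CCAAT box (one of which 33% of promoters hold). None of the 5 windows held the letters of an AP-1 site (6.60% of promoters) or a CRE (1.77%). Matches are descriptions of the letters in these windows and not of factor binding. The GC share was 76.4% for HBEGF, 75.6% for TGFA, 68.4% for MET, 78.4% for FGFR2 and 58% for EREG.

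Set against each other, the receptors and ligands differed in mean on the single-drug arrays. The mean log2 ratio over untreated with VPA was -0.12 over the 5 receptors and 0.31 over the 4 ligands, a difference of -0.43. With GEM the means were -0.23 and 0.35, a difference of -0.58. With GEM_VPA the means were 0.05 and -0.03, a difference of 0.08 that was -0.11 when medians replaced means. No test applies, because genes are not replicates. Neither class was uniform. EREG had a negative ratio among the ligands in both single-drug comparisons, and EGFR and ERBB3 (0.13 and 0.05) had positive ones among the receptors. With VPA 3 of the 5 receptors were above 0, ERBB2 (0.02) included, and their median was 0.02, so the negative receptor mean rests on MET and FGFR2. The sign of ERBB2 there turned after median centring of the arrays (-0.03).

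The same difference between the classes was seen from the other side, with GEM_VPA set over each single drug. Receptors minus ligands was 0.51 over VPA and 0.66 over GEM. MET was higher on the GEM_VPA array by 0.65 over VPA and 0.71 over GEM, and FGFR2 by 0.68 and 0.87. HBEGF was at -0.90 over VPA and -0.73 over GEM, TGFA at -0.54 and -0.48, and BTC at -0.42 and -0.60. EREG was at 0.52 and 0.29. None of the 9 members passed the 2-fold rule in either comparison, where 3.16% and 5.38% of genes at level did. These comparisons share arrays with those over untreated, so the values stand side by side and are not independent of them.

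**Figure D2:**
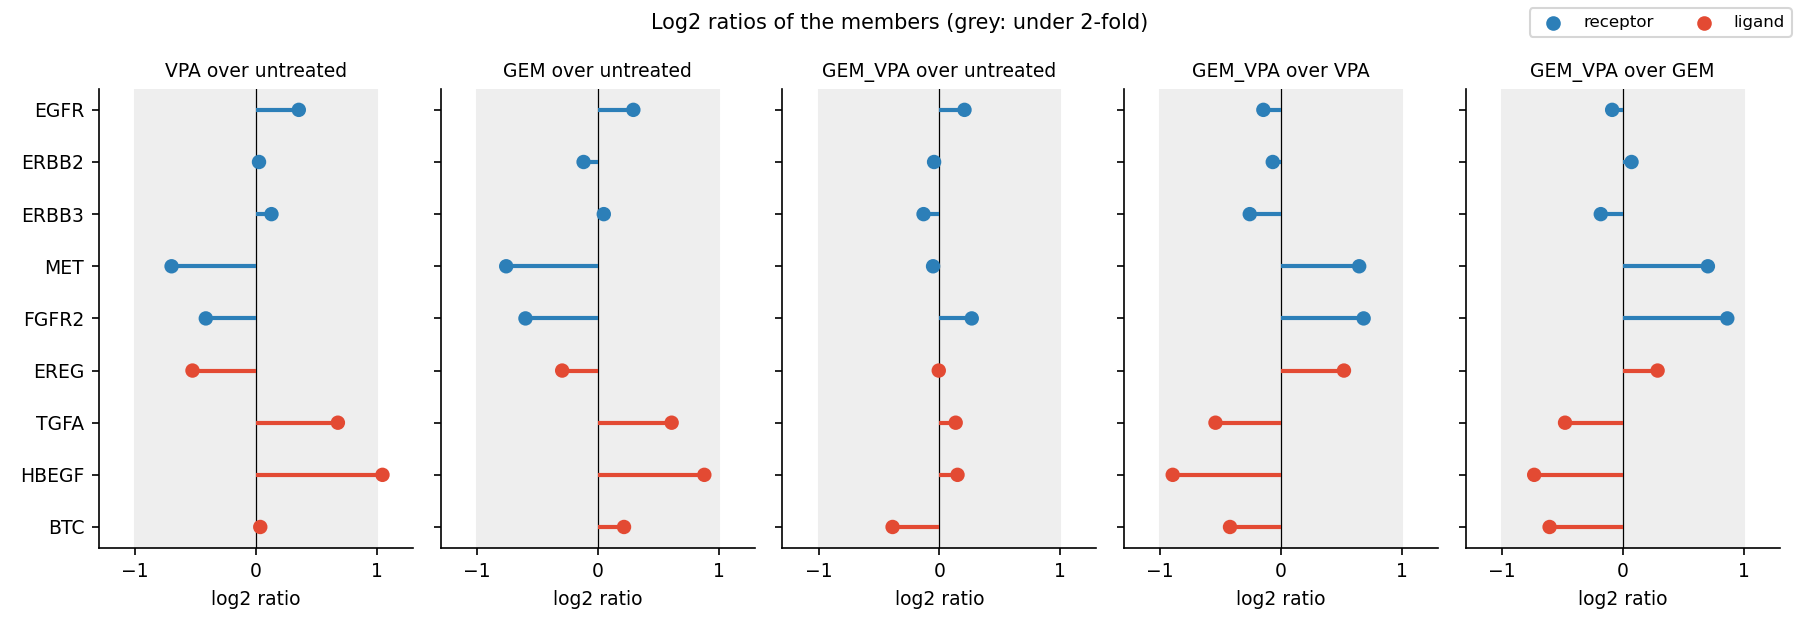
Log2 ratio (x axis) of the 9 measured members (y axis) in the 5 comparisons, receptors in blue and ligands in red, with ratios under 2-fold in the grey band. HBEGF in VPA over untreated, at 1.05, is the point outside the band, and all points of GEM_VPA over untreated lie between -0.39 and 0.27.

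At a limit of 1.5-fold, 3 of the 9 members were called for VPA over untreated (HBEGF and TGFA higher, MET lower), beside 17.0% of all genes at level. For GEM over untreated 4 were called, with FGFR2 lower in addition, beside 17.0%. For GEM_VPA over untreated 0 were called, beside 1.60%. Over VPA, MET and FGFR2 were higher and HBEGF lower on the GEM_VPA array, beside 15.1%, and over GEM the same receptors were higher and HBEGF and BTC lower, beside 18.5%. BTC fell under the level filter for VPA over untreated, GEM_VPA over untreated and GEM_VPA over VPA, which left 8 of the 9 members at level there.

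The effect of each drug can be read in the presence and in the absence of the other, from pairs of arrays that share none. The VPA effect on HBEGF was -0.73 with GEM present and 1.05 without it, and the GEM effect was -0.90 with VPA present and 0.88 without it. For MET the VPA effect was 0.71 with GEM present and -0.70 without it. Signs were opposite in 8 of 9 members for VPA and in 8 of 9 for GEM, ERBB2 being the exception in both. Over all 11808 genes at level on at least 1 array, signs were opposite in 74.1% for VPA and 84.4% for GEM, so the members followed what most genes did.

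The departure from additivity subtracts the sum of both single-drug log2 ratios from the log2 ratio of GEM_VPA over untreated, and is 0 where the single effects add up. It was -1.78 for HBEGF, 1.40 for MET, 1.28 for FGFR2, -1.15 for TGFA and 0.81 for EREG. Over all genes at level its robust SD was 0.69. Departures at least as large were seen in 5.29% of genes for HBEGF, 10.1% for MET, 12.3% for FGFR2 and 15.5% for TGFA. For EGFR (-0.44), ERBB3 (-0.31), ERBB2 (0.05), BTC (-0.64) and EREG the share was 28.2% or more.

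**Figure D3:**
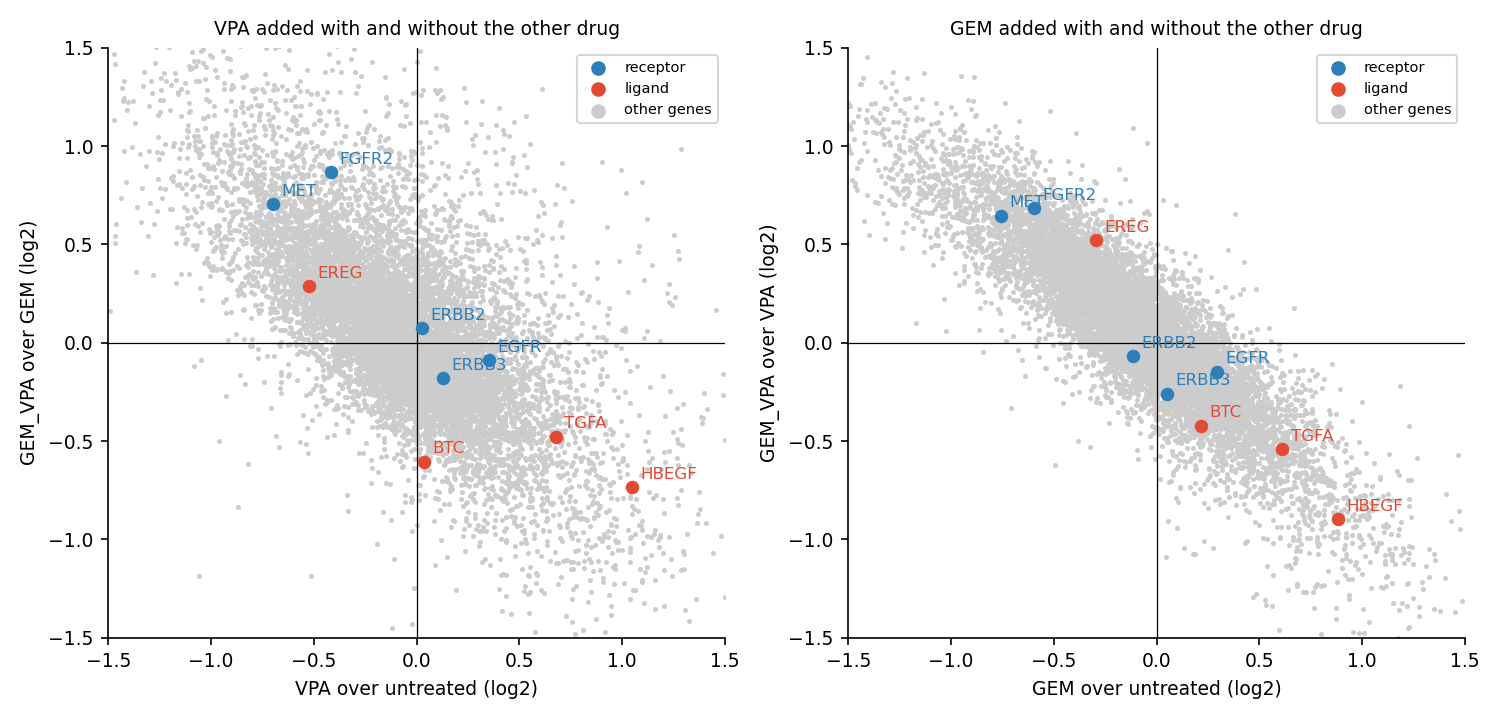
Log2 effect of adding VPA (left) or GEM (right) in the presence (y axis) and absence (x axis) of the other drug, receptors in blue, ligands in red and other genes at level in grey; 193 and 124 of 11808 genes lie beyond the axes. HBEGF lies at the lower right of both panels (for VPA, -0.73 with GEM present and 1.05 without it) and MET and FGFR2 at the upper left.

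The averaged effect of each drug over both pairs of arrays was tested with limma (additive model, 1 residual degree of freedom per gene, which also takes in the departure from additivity). No member passed the threshold of 0.05. HBEGF averaged 0.16 (SE 0.51) for VPA and -0.01 (SE 0.51) for GEM, and MET averaged 0.003 (SE 0.43) and -0.06 (SE 0.43). Unadjusted limma p-values of the members ran from 0.402 to 0.995, with an adjusted p of 1 for each. Over 11808 genes limma called 0 for VPA and 0 for GEM (0.00% each), with 22 and 0 genes at an unadjusted p under 0.05. Wide standard errors follow from the departure in the residual, so this test says little of single conditions.

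The profiles of the members fell close to each other in a few pairs. By Euclidean distance between profiles centred on their own mean over 4 arrays, MET and FGFR2 were 0.25 apart, TGFA and HBEGF 0.32, and MET and EREG 0.36. The closest pair was ERBB2 and ERBB3 at 0.19, both with narrow ranges, and EGFR and ERBB3 were 0.25 apart. The widest gap was between MET and HBEGF, 1.60. Among the 11808 genes at level, the 5 nearest to HBEGF were RAET1L, RND3, TMEM87B, STAT3 and NEDD4L, at distances of 0.07 to 0.08. STAT3, a transcription factor that cytokine and growth factor receptors activate, read 12.38 with VPA, 12.32 with GEM, 11.53 with GEM_VPA and 11.34 untreated. The 5 nearest to FGFR2 were RNF144A, HOXC5, ENOX1, INTS8 and CYB5R4, at 0.03 to 0.07. With 4 points per profile, such closeness is a description.

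The other genes of these pathways were read in 9 lists, of which 97 of 110 genes were measured. Past the 2-fold rule there were 4 of 83 at level for VPA over untreated, beside 4.00% of all genes at level. For GEM over untreated there were 2 of 83 at level beside 4.49%, and for GEM_VPA over untreated 0 of 82 beside 0.148%. With GEM_VPA set over VPA there were 3 of 83 at level beside 3.16%, and over GEM 1 of 82 beside 5.38%. The median log2 ratio of the 97 genes was 0.09, 0.03 and 0.02 for VPA, GEM and GEM_VPA over untreated, beside -0.01, -0.01 and -0.03 over all genes. The genes FGF1, GAB2, CBLB and LRIG3 made up all the calls.

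Of the 7 other ERBB receptor and ligand genes, 5 lay below the median on every array, and of the 10 other FGF receptor and ligand genes 3 did. ERBB4 read 6.66 to 6.82 and EGF 6.17 to 6.79, both among those 5, and HGF, the MET ligand, read 5.56 to 5.80, under the 25th percentile on every array. FGF1, which binds all FGF receptors, was the 1 gene called among these lists. It read 8.29 with VPA, 7.63 with GEM, 6.82 with GEM_VPA and 6.67 untreated, and rose with VPA (log2 ratio 1.62). Its untreated value lay below the array median, where values are compressed. FGF1 was also lower in GEM_VPA over VPA (-1.47). FGFR1, FGFR3 and FGFR4 did not pass the rule in any comparison.

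Among the adaptors, which link receptors to RAS and PI3K, GAB2 was the 1 of 16 measured genes called. It was called with VPA (beside 4.00% of all genes at level), with GEM (4.49%) and in GEM_VPA over VPA (3.16%). It read 9.22 with VPA, 9.12 with GEM, 8.14 with GEM_VPA and 7.99 untreated, with log2 ratios of 1.23 and 1.14 for VPA and GEM over untreated and -1.08 for GEM_VPA over VPA. Of 16 genes listed under receptor restraint and removal, 2 were called with VPA (beside 4.00%) and 1 with GEM (4.49%). The role of each listed gene in these cells was not tested. CBLB, a ubiquitin ligase of activated receptors, rose with VPA (1.23) and was at 0.90 with GEM. LRIG3, of the LRIG family of transmembrane proteins that includes the ERBB restraint LRIG1, read 7.63, 7.39, 8.80 and 8.74 on the VPA, GEM, GEM_VPA and untreated arrays. LRIG3 fell with VPA (-1.11) and with GEM (-1.35), and was higher in GEM_VPA over VPA (1.17) and over GEM (1.41). Its values on the VPA and GEM arrays lay below the array median, where values are compressed, and each of these calls rests on 1 of them. ERRFI1, an inhibitor of EGFR kinase that ERK signalling induces, read 12.83 to 12.99 on the 4 arrays.

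The lists for HGF activation (7 measured), ligand shedding (8), RAS-ERK core (7), PI3K-AKT core (7) and ERK output and feedback (19) had 0 calls in each of the 5 comparisons. Over all genes at level, 0.148% to 5.38% were called in those comparisons. All 19 ERK output genes lay above the median on every array, and their median log2 ratio was 0.08, -0.06 and 0.07 for VPA, GEM and GEM_VPA over untreated. DUSP6, an ERK phosphatase that ERK induces, was at 0.19, -0.26 and 0.16. SPRY2 and SPRY4, feedback inhibitors, had ratios over untreated of -0.16 and -0.04 on the VPA array and of -0.40 and -0.23 on the GEM array. Of the 19 genes, 11, 6 and 14 were above 0 for VPA, GEM and GEM_VPA over untreated. Some of the other ERK phosphatases and feedback genes had higher values on both single-drug arrays without passing the rule, and others did not. DUSP4 was at 0.92 with VPA and 0.94 with GEM, DUSP5 at 0.48 and 0.28, and SPRY1 at 0.23 and 0.55.

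**Figure D4:**
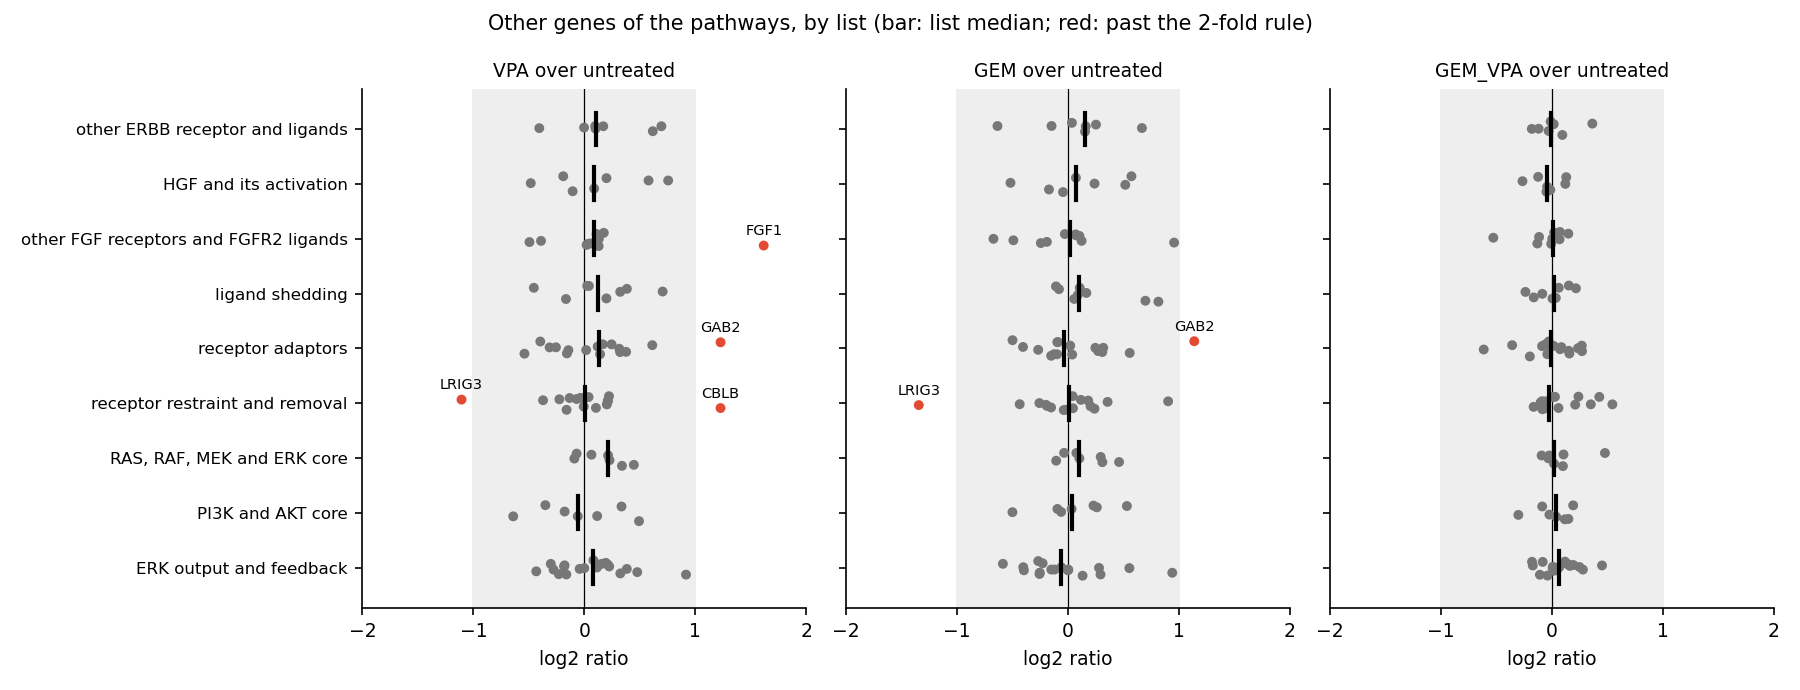
Log2 ratio (x axis) over untreated of the 97 other pathway genes in 9 lists (y axis) for VPA, GEM and GEM_VPA, 1 point per gene, with the list median as a bar and genes past the 2-fold rule in red. FGF1, GAB2, CBLB and LRIG3 are the points past the rule with VPA, GAB2 and LRIG3 with GEM, and none with GEM_VPA.

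Mean levels of the marker lists differed between the arrays, and not all in the same way. The mean log2 level of the 10 biliary epithelial markers was 11.33 with VPA, 11.32 with GEM, 10.79 with GEM_VPA and 10.87 untreated. Of these 10, 7 had positive and 3 negative log2 ratios for VPA over untreated, with the same counts for GEM. In the same order of arrays the leukocyte mean (7 markers) was 7.69, 7.77, 7.21 and 7.43. Hepatocyte markers averaged 6.86, 6.81, 6.65 and 6.70, and fibroblast markers 7.01, 7.05, 6.97 and 6.98. The endothelial mean was highest on the untreated array (6.47, 6.51, 6.47 and 6.56). Of the leukocyte markers, 0 of 7 passed the rule for VPA or GEM over untreated. CD68 and LYZ, 2 of the 7, were lower in GEM_VPA over GEM (beside 5.38% of all genes at level). CD68 alone of the 7 passed the rule in GEM_VPA over VPA, at -1.28 (beside 3.16%). KRT7 alone of the 10 biliary markers passed the rule over untreated, at 1.97 with VPA (beside 4.00% of all genes at level) and 1.61 with GEM (beside 4.49%). On the GEM_VPA array KRT7 was lower by the rule over VPA (-2.57) and over GEM (-2.21), as was SERPINA1 of the hepatocyte markers (-1.23 and -1.15). Of all genes at level, 3.16% passed the rule over VPA and 5.38% over GEM. PTPRC, which defines leukocytes, read 5.21 to 5.34, under the 10th percentile on every array. The part of these differences in the values of HBEGF, TGFA, MET and FGFR2 was not tested.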

How the data were processed

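Total RNA of HuCCT1 cells was hybridised to 4 Affymetrix Human Gene 1.0 ST arrays, 1 per condition. The deposited unit is the log2 intensity. Per the labels, GeneSpring GX 11.5 was the authors' normalization software, and the submitters' processing notes name RMA as the method, which equalises intensity distributions and compresses low values. No source used here names the genome build.

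Of 28869 rows, 19310 had 1 gene symbol in the platform annotation, 1752 several and 7807 none. Genes took the mean of their rows with 1 symbol. Entrez IDs matched the RefSeq table (GRCh38.p14) for 99.8% of these, and 0 symbols were updated. Differences were log2 ratios with the 2-fold and level rules. The average drug effects were tested with limma 3.58.1 in R 4.3.3 (Benjamini-Hochberg over 11808 genes at the median on at least 1 array). Steps were tested on simulated data with additive VPA effects and noise set from the GEM_VPA and untreated arrays. That setting does not cover departures from additivity. Members, lists and alternatives were chosen with earlier results of these data known. Named genes were all members, every called pathway gene, ERBB4, EGF, HGF, DUSP6, SPRY2, SPRY4, ERRFI1, the first 4 biliary markers above the median on every array, and the 5 nearest profiles to the widest-ranging receptor and ligand. CFTR, AQP1, APOA1, SERPINA1, COL1A1, NKG7, CD68, LYZ, PTPRC, DUSP4, DUSP5, SPRY1, FGFR1, FGFR3 and FGFR4 were named after their values were seen. Alternatives covered normalization, centring, row choice, level filter, fold limit, summary and variance model. Python 3.11.15, numpy 2.4.6, pandas 2.3.3 and matplotlib 3.10.9 were used.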

Additional observations from a re-analysis of the deposited data

Results flagged for a closer look

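The members given here are listed because the effect of a drug had opposite signs in the presence and absence of the other drug, each larger than 0.29 on the log2 scale (2 robust SDs of GEM_VPA over untreated). The difference between the pairs was not tested, since each effect rests on 2 arrays. Opposite effects past this limit were seen in 4 of 9 members for VPA and 5 of 9 for GEM, beside 27.1% and 32.3% of 11808 genes, and signs alone were opposite in 74.1% and 84.4% of those genes. The limit comes from the closest pair of arrays (robust SD 0.15), while the effects come from comparisons with 0.25 to 0.27. For HBEGF the VPA effect was -0.73 with GEM present and 1.05 without it, and the GEM effect -0.90 with VPA present and 0.88 without it. For TGFA the VPA effect was -0.48 with GEM and 0.68 without it, and the GEM effect -0.54 with VPA and 0.61 without it. MET had a VPA effect of 0.71 with GEM and -0.70 without it, and a GEM effect of 0.65 with VPA and -0.76 without it. FGFR2 had a VPA effect of 0.87 with GEM and -0.42 without it, and a GEM effect of 0.68 with VPA and -0.60 without it. For EREG the GEM effect was 0.52 with VPA present and -0.294 without it, at the limit of 0.294, and -0.289 without it after quantile normalization again, under that limit.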

How the results depend on the processing

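With each array centred on its median, HBEGF no longer passed the rule for VPA over untreated, which left 0 members. At 1.5-fold 3, 4, 3 and 4 members were called for VPA over untreated, GEM over untreated, GEM_VPA over VPA and GEM_VPA over GEM, and at 3-fold 0 for VPA over untreated. The other pathway genes numbered 10, 9, 1, 13 and 12 at 1.5-fold over the 5 comparisons in the order of the report. The shares of all genes at level called at 1.5-fold were 17.0%, 17.0%, 1.60%, 15.1% and 18.5% in the same order. At 3-fold 1 was left for VPA over untreated and 0 for GEM over untreated, GEM_VPA over VPA and GEM_VPA over GEM. With no filter on level 2 were called for GEM_VPA over GEM. The shares of all genes called at 3-fold or with no filter were not counted, so no reading is given to those counts. After quantile normalization again the departure was -0.60 for EGFR, 1.25 for MET, -1.32 for TGFA and -1.97 for HBEGF. Receptors minus ligands for GEM_VPA over untreated was -0.11 by medians. The average GEM effect of limma on HBEGF turned to 0.00097 after median centring of the arrays. The largest move of a member ratio was 0.11 under another normalization, centring or row choice. The cause was not tested, apart from the changed limits and filter. No paired analysis was possible because each group has 1 array. Limma called 0 genes for either drug under every alternative run.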
